A study of Mus musculus with 16 samples.

Results

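Heat shock proteins of the Hsp70 and Hsp90 families and their J-protein partners were examined in mouse quadriceps muscle. The genes were taken by name: every gene whose array symbol was Hspa, Dnaja, Dnajb or Dnajc followed by a number, with Hsp90aa1 and Hsph1, and without Hspa5, Hspa9 and Dnajb9. This gave 54 of the 17097 genes represented on the array. They comprised 10 Hsp70 genes, 2 genes of the Hsp90 and Hsp110 families (Hsp90aa1 and Hsph1), and 4 type A, 11 type B and 27 type C J-protein genes. Hspa1a and Hsp90ab1, which the same naming would admit, were not analysed here, since no probe set carried either symbol alone.

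RNA came from the quadriceps of 16 mice, 1 array per mouse. Control and Mfn2KO mice were taken at 6 months of age (young) and at 22 months (old), with 4 mice in each of the 4 groups. All were fed standard chow under a 12-h light cycle. Mfn2 encodes mitofusin 2, a fusion protein of the outer mitochondrial membrane. The labels used here do not name the promoter, Cre line or strain behind the knockout, and do not say what the replicate numbers 1 to 4 stand for. They also give each mouse a family, which was unbalanced between ages. The differences below, for genotype as well as age, were fitted without it unless stated.

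Hsp70 proteins bind exposed hydrophobic stretches of unfolded proteins and release them in a cycle driven by ATP. J-proteins deliver clients to Hsp70 and trigger its ATP hydrolysis through their J domain, Hsp110 proteins exchange its nucleotide, and Hsp90 takes over clients near their folded state. In muscle the system maintains the contractile and cytoskeletal proteins, and several of its genes are induced by heat, exercise or proteotoxic stress through heat shock factor 1.

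Heat shock factor 1 binds repeats of the letters GAA and TTC, so the upstream sequence of 4 members was read for them. Hspa1b, Dnaja4 and Dnajb4 are shown because they had the largest KO minus control differences at 6 months, and Hsph1 because it carries the same letters and differed by only -0.05. The sequences are from RefSeq, build GRCm38.p6, and end at the base before an annotated transcript start. Hspa1b is chr17:34959239-34959488 on the minus strand, Dnajb4 chr3:152193846-152194095 on the minus strand and Hsph1 chr5:149636337-149636586 on the minus strand. For Dnaja4 the last 100 bases are given, chr9:54699459-54699558 on the plus strand, since another annotated start lies further upstream. The Dnajb4 window also lies downstream of another annotated start of that gene. Capitals mark GAANNTTC or TTCNNGAA, 8 letters that each read the same on both strands.
Hspa1b: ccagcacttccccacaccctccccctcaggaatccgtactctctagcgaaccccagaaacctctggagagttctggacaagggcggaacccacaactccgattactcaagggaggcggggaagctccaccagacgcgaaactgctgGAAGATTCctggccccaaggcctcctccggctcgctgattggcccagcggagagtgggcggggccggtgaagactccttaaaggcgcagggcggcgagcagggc
Dnaja4: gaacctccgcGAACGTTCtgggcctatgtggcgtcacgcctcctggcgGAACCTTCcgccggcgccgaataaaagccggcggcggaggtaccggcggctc
Dnajb4: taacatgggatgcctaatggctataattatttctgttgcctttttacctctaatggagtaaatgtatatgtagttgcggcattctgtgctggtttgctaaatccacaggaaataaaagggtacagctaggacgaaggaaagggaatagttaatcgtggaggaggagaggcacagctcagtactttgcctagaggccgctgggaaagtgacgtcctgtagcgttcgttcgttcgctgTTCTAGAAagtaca
Hsph1: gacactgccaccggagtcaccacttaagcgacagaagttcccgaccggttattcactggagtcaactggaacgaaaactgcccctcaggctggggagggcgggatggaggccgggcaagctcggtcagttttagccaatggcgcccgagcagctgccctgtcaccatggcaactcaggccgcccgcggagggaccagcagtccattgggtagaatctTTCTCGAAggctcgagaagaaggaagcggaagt
The capitals begin 104 bases before the start of Hspa1b, 90 and 52 before that of Dnaja4, 14 before that of Dnajb4 and 33 before that of Hsph1. The 250 bases before the other annotated start of Dnaja4, and those before that of Dnajb4, held neither form. Either form lay within the 250 upstream bases of 8 of the 43 members with a RefSeq promoter entry (18.6%) and of 14.5% of 27025 genes. The others were Dnaja1, Dnajb6, Dnajc10 and Dnajc27. A longer form, in which GAA and TTC alternate 3 times with NN between them, holds both 8-letter forms and was found in 1 of the 43 (Dnajb6, 2.33%) and in 0.514% of all genes. A match describes the letters and is not a binding site.

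The median log2 signal of an array was 4.58 at the lowest and 4.65 at the highest. Mfn2 itself lay between 8.03 and 9.45 in the 8 control mice and between 6.32 and 8.54 in the 8 KO mice, so the ranges overlapped; the difference was -0.34 at 6 months and -0.94 at 22 months, each with an adjusted p of 1 in limma. Muscle fibre markers were high on every array (mean log2 level of 10 markers 11.1 to 11.8). In whole muscle, fewer cells of a type and less RNA per cell cannot be told apart. Macrophage markers averaged 5.62 ± 0.17 and 5.83 ± 0.37 (SD, n = 4) in young control and KO mice and 6.19 ± 0.47 and 6.26 ± 0.25 in old control and KO mice. Fat cell markers, 4 of 6 measured, lay between 6.33 and 6.94 in young KO mice and between 7.05 and 8.08 in young control mice. In old mice they overlapped, at 7.10 ± 0.60 in control and 7.49 ± 0.61 in KO mice (SD, n = 4). Their part in the chaperone values was not tested.

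None of the 54 chaperone genes passed the threshold in any comparison (limma, Benjamini-Hochberg over all genes, adjusted p under 0.05), with or without the replicate number as a block. For genotype at 6 months the share of all genes called was 0% in both fits. At an unadjusted p under 0.05, 2 members were counted without the block against 1.70% of all genes, and 6 with it against 9.43%. For genotype at 22 months, again with 0% of all genes called in either fit, the counts were 2 members (1.14% of all genes) and 5 members (6.62%). For age in control mice they were 0 (2.12%) and 7 (9.64%), where the block called 0.0468% of all genes and the other fit 0%. For age in KO mice they were 0 (2.59%) and 3 (10.2%), with 0.0175% of all genes called without the block and 0.0234% with it. Genotype over both ages gave 2 (1.55%) and 8 (8.47%), with 0% called in either fit. Age over both genotypes gave 0 (3.52%) and 6 (11.7%), with 0.0585% and 0.579% of all genes called, and the interaction gave 0 (1.13%) and 8 (7.24%), with 0% called in either fit. With the block these counts are 5.56% to 14.8% of the 54 members, beside 6.62% to 11.7% of all genes. The median difference over the members was 0.014 for genotype at 6 months, -0.029 for genotype at 22 months, -0.003 for age in control mice and -0.050 for age in KO mice, against -0.006, -0.004, -0.008 and -0.008 over all genes.

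**Figure D1:**
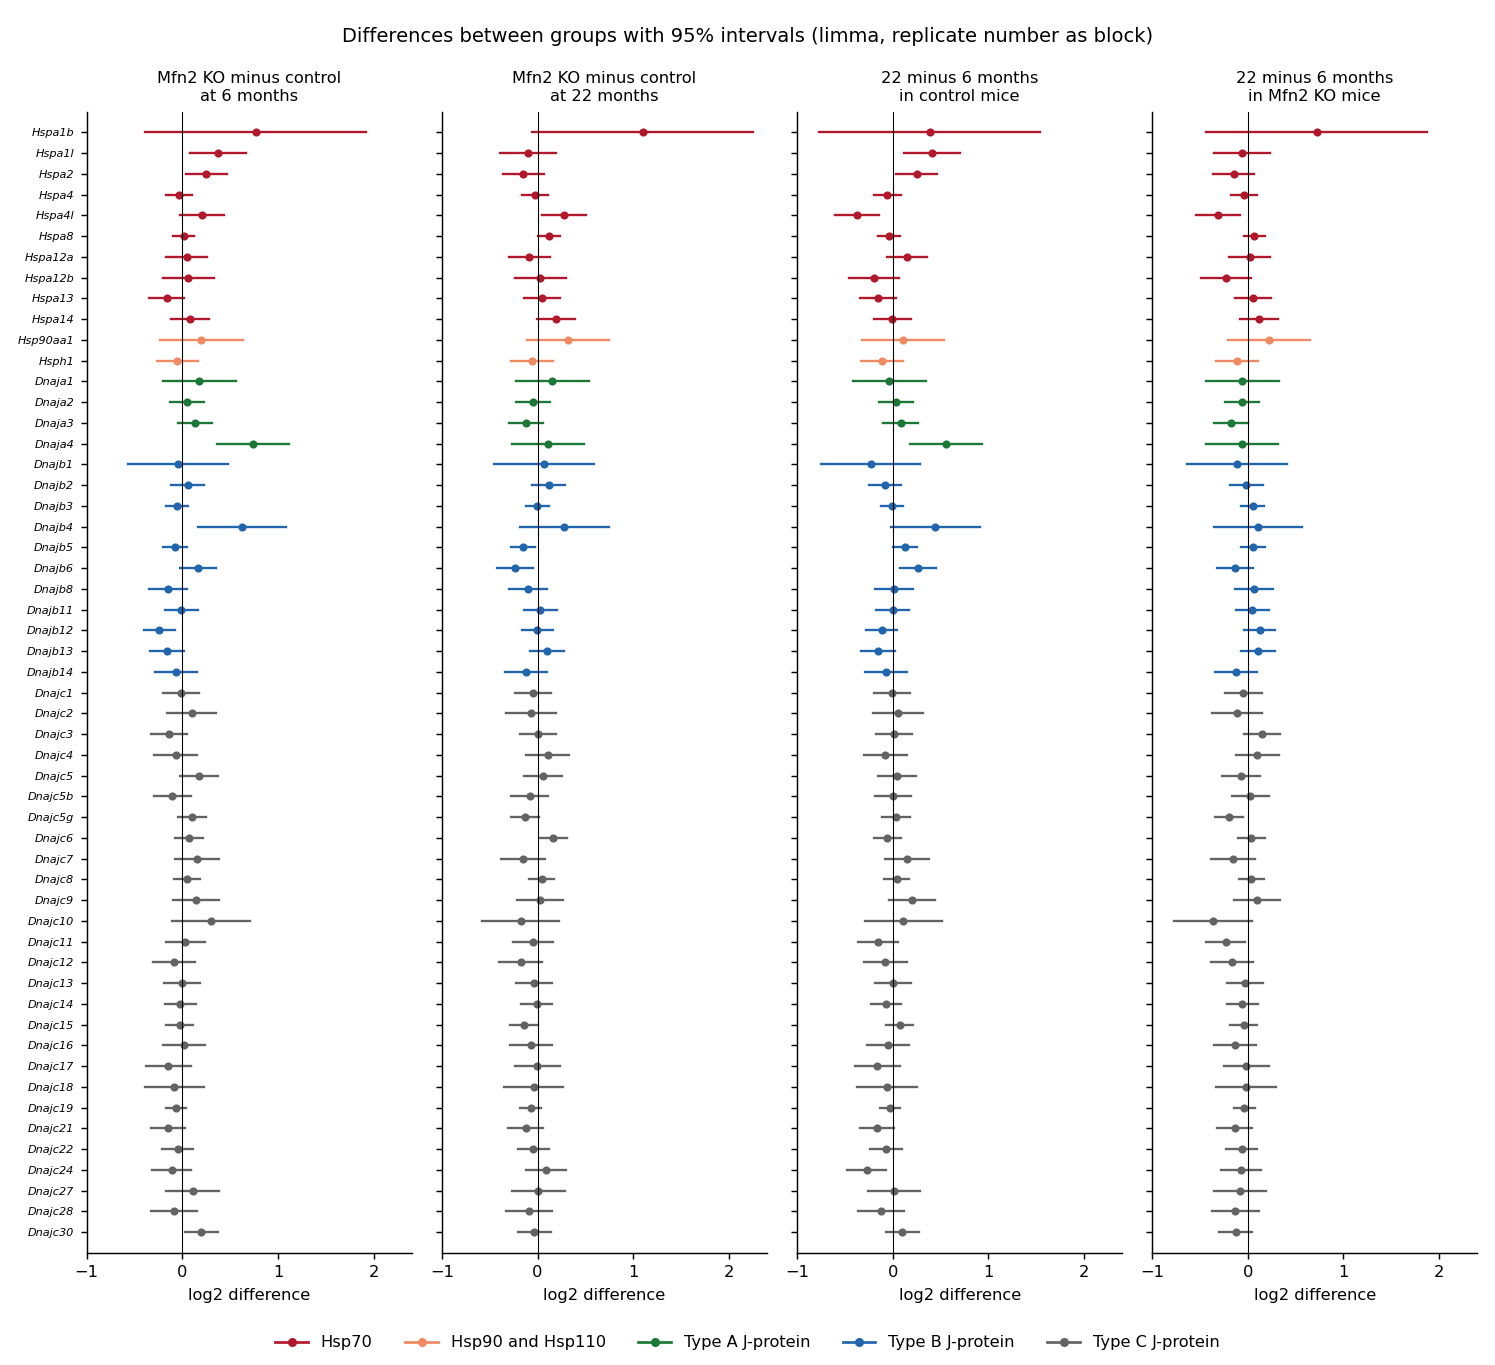
Log2 differences between groups for all 54 chaperone genes, as points with 95% intervals from limma with the replicate number as block, coloured by family. Most points lie near 0; Hspa1b has the widest interval in every panel, from -0.05 to 2.25 for genotype at 22 months.

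Of the Hsp70 genes, Hspa1b, which encodes the stress-inducible cytosolic form, varied most between mice of all 54 members. Its signal was 6.08, 4.48, 5.51 and 5.17 in the young control mice of numbers 1 to 4, and 7.39, 6.00, 6.92 and 4.01 in the young KO mice. It was 5.73, 7.08, 4.60 and 5.39 in the old control mice, and 8.03, 6.81, 7.00 and 5.36 in the old KO mice. The lowest and highest mouse, young KO number 4 and old KO number 1, stood 16.2-fold apart, and all 4 groups overlapped. KO exceeded control by 0.77 at 6 months (SE 0.70, 3 of 4 numbers) and by 1.10 at 22 months (SE 0.70, 2 of 4 numbers), with adjusted p of 1 for each. With age it was higher by 0.39 in control mice (2 of 4 numbers) and by 0.72 in KO mice (4 of 4 numbers), again not past the threshold. With the block the genotype intervals ran from -0.39 to 1.92 and from -0.05 to 2.25, so neither no difference nor a several-fold one was outside them. Hspa1b and Hspa1a are nearly identical in sequence, and this probe set cannot be taken as Hspa1b alone; its 2 other probe sets averaged 3.39 and 2.69 and differed by at most 0.15 in these comparisons.

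Hspa8 encodes the constitutive Hsc70. It was steady, from 11.18 to 11.43 over the 16 mice. In old KO mice it was 0.12 above old controls (SE 0.05, adjusted p = 1), higher in 4 of 4 numbers, although the groups overlapped. Hspa1l, a form best known from testis, was higher in KO than in control at 6 months by 0.37 and higher with age in control mice by 0.41 (SE 0.32 and adjusted p of 1 for both). Hspa2, another testis-enriched form, was higher by 0.25 in each of these comparisons (SE 0.25).

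Hspa4l encodes an Hsp110 relative named among the Hsp70 genes, and it came closest to a call. Its signal was 5.93, 6.07, 5.29 and 5.15 in young control mice and 5.52, 5.99, 4.79 and 4.65 in old ones. In KO mice it was 5.88, 6.26, 5.69 and 5.44 at 6 months and 5.84, 5.96, 5.09 and 5.16 at 22 months. Within each number the old mouse was lower in both genotypes, but the groups overlapped, and numbers 1 and 2 lay above numbers 3 and 4 in each group. The age difference over both genotypes was -0.34 (SE 0.22, adjusted p = 1). With the replicate block it was the same with SE 0.076 and an adjusted p of 0.0639, with an interval from -0.50 to -0.18. Without young KO number 1 or without old control number 2 the blocked adjusted p was 0.0486 or 0.0291, which passes. With the mouse family of the labels as a covariate and no block, the Hspa4l difference was -0.63 with SE 0.40. The limma p of that fit was 0.146 unadjusted and 0.9999 adjusted. Hspa4l was not called with family and block together either. Its 2 dimmer probe sets differed by -0.09 and -0.16.

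Hspa4, another Hsp110 relative, and Hspa12a, Hspa12b, Hspa13 and Hspa14, less studied relatives, differed by 0.22 at most in size in the 4 comparisons of 2 groups, and none passed. Hspa12b with age in KO mice (-0.22) was the largest of these in size. Hspa14 with genotype at 22 months was the largest positive difference, 0.20. Larger values came from probe sets not used for the gene: the dimmest of 3 for Hspa4 gave 0.31 with age in control and 0.33 in KO mice, and 1 of Hspa12a gave 0.30 with genotype at 6 months and -0.31 with age in KO mice.

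**Figure D2:**
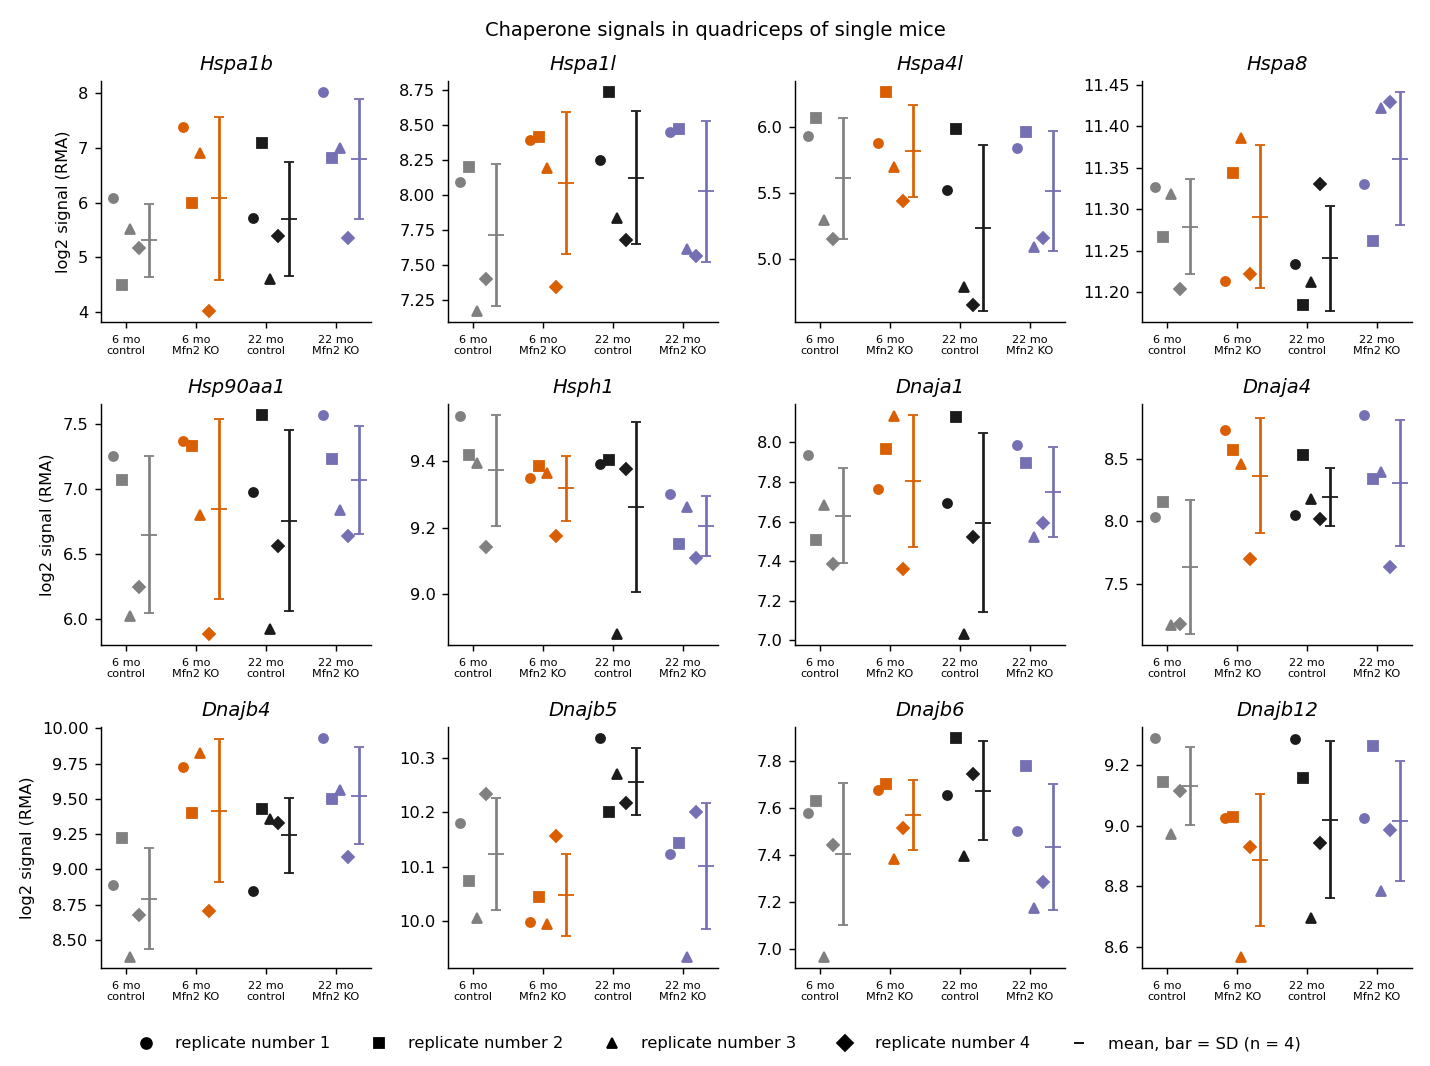
Log2 signals of 12 chaperone genes in each mouse, by group on the x axis, with the mean and SD beside the 4 points and a marker for each replicate number. Hspa1b spans 4.01 to 8.03 and Hspa8 11.18 to 11.43. In Hspa4l and Hspa1l the circles and squares (numbers 1 and 2) lie above the triangles and diamonds in every group.

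Hsp90aa1 encodes the inducible Hsp90. It was 7.26, 7.07, 6.02 and 6.25 in young control mice, 7.37, 7.33, 6.80 and 5.88 in young KO mice, 6.98, 7.57, 5.92 and 6.56 in old control mice and 7.57, 7.24, 6.84 and 6.64 in old KO mice. Numbers 1 and 2 lay above numbers 3 and 4 in every group, and the groups overlapped. KO exceeded control by 0.20 at 6 months and 0.32 at 22 months, with blocked intervals from -0.23 to 0.63 and from -0.11 to 0.75. Hsph1, the cytosolic Hsp110 that exchanges the nucleotide of Hsp70, differed by -0.11 with age in both genotypes and by -0.05 and -0.06 with genotype at 6 and 22 months.

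Among the type A J-proteins, Dnaja4, whose product partners Hsp70 in the cytosol, had the largest difference. It was 8.03, 8.15, 7.17 and 7.17 in young control mice and 8.73, 8.57, 8.46 and 7.70 in young KO mice. Each young KO mouse exceeded the control of its number, and the groups overlapped. The difference was 0.73 (SE 0.29, adjusted p = 1; 0.345 with the block, interval 0.36 to 1.11). At 22 months the values were 8.05, 8.53, 8.18 and 8.02 in control and 8.85, 8.34, 8.39 and 7.64 in KO mice, a difference of 0.11. In control mice Dnaja4 was 0.56 higher at 22 than at 6 months (SE 0.29, adjusted p = 1; 0.344 with the block), in 4 of 4 numbers. The interaction of genotype and age was -0.62 (blocked interval -1.15 to -0.09, adjusted p = 0.665 with the block). Its second probe set gave 0.59 for genotype at 6 months and 0.31 for age in control mice. Dnaja1 and Dnaja2, partners of the constitutive Hsc70, and the mitochondrial Dnaja3 differed by at most 0.18 in size in the comparisons of 2 groups.

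Of the type B J-proteins, Dnajb4, another cytosolic partner of Hsp70, had the largest difference. In young mice it was 8.89, 9.22, 8.38 and 8.68 in controls and 9.72, 9.40, 9.83 and 8.70 in KO mice. In old mice it was 8.84, 9.43, 9.36 and 9.33 in controls and 9.93, 9.50, 9.57 and 9.09 in KO mice. KO exceeded control by 0.62 at 6 months (SE 0.24, adjusted p = 1; 0.435 with the block), in 4 of 4 numbers, and by 0.28 at 22 months (blocked interval -0.19 to 0.75). Its 2 dimmer probe sets gave 0.29 and 0.18 at 6 months. Dnajb1, the main stress-inducible partner of Hsp70, differed by -0.05 and 0.07 with genotype and by -0.23 and -0.11 with age, all with blocked intervals that hold 0.

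Dnajb6, which holds back protein aggregation and whose human counterpart is mutated in a limb-girdle muscular dystrophy, differed in opposite directions with genotype. It was 7.58, 7.63, 6.97 and 7.44 in young control and 7.68, 7.70, 7.38 and 7.51 in young KO mice, higher in KO in 4 of 4 numbers. It was 7.65, 7.90, 7.40 and 7.74 in old control and 7.50, 7.78, 7.17 and 7.28 in old KO mice, lower in 4 of 4. The groups overlapped at both ages. The differences were 0.17 and -0.24, and their interaction was -0.40 (SE 0.24, adjusted p = 1; 0.641 with the block). Its 3 other probe sets, from brightest to dimmest, gave genotype differences of 0.086, 0.20 and -0.006 at 6 months. At 22 months they gave -0.024, 0.16 and -0.10, so only the first changed sign. Their interactions were -0.11, -0.04 and -0.10.

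Dnajb5, a J-protein found in skeletal and heart muscle, was 10.34, 10.20, 10.27 and 10.22 in old control mice and 10.12, 10.14, 9.93 and 10.20 in old KO mice. The groups did not overlap, by a narrow margin, a pattern found in 0.907% of all genes in this comparison. The difference was -0.16 (SE 0.07, adjusted p = 1), and its 2 other probe sets differed by less than 0.01. At 6 months the member whose groups did not overlap was Dnajb8 (-0.15), a pattern found in 1.36% of all genes. Its mean level, 4.77, lay below the median of all genes (5.15). No member was without overlap for age in control mice (1.52% of all genes) or age in KO mice (1.80%). Dnajb12, a membrane J-protein of the endoplasmic reticulum, was lower in KO at 6 months by 0.24 in 4 of 4 numbers (adjusted p = 1; 0.392 with the block), and Dnajb2 differed by 0.12 at most.

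The 27 type C genes, which share little beyond the J domain, differed by smaller amounts, from -0.36 to 0.30 in the comparisons of 2 groups. In old against young KO mice 6 of the 27 were higher and 21 lower, with a median of -0.064, beside 47.1% of all genes higher and a median of -0.008. In the other comparisons of 2 groups 13 were higher and 14 lower for age in control mice (median -0.008), 12 and 15 for genotype at 6 months (median -0.013) and 8 and 19 for genotype at 22 months (median -0.043). Age in KO mice gave -0.36 for Dnajc10, an oxidoreductase of the endoplasmic reticulum, -0.23 for Dnajc11 of the mitochondria and -0.19 for Dnajc5g. Each was lower in 4 of 4 numbers, and none had an adjusted p under 0.353 even with the block. Dnajc24, a protein of the diphthamide pathway, was lower by 0.27 in old control mice (adjusted p = 0.398 with the block). The mean levels of Dnajc5g (3.64) and Dnajc24 (4.51) lay below the median of all genes (5.15).

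Chaperone signals also differed by replicate number. In 46 of 54 members (85.2%) the mean of the 8 mice with numbers 1 and 2 exceeded that of the 8 with numbers 3 and 4, against 58.9% of all genes, and the median difference was 0.33 against 0.083. The ranges did not overlap in 18 members higher in numbers 1 and 2 and in 2, Dnajc5g and Dnajc6, higher in numbers 3 and 4. These are 33.3% and 3.7% of members, against 13.9% and 12.2% of all genes. Among genes at or above the median level, 97.7% of 43 members and 84.5% of all genes were higher in numbers 1 and 2. The median difference there was 0.34 for members and 0.29 for all genes, and the ranges did not overlap, with numbers 1 and 2 higher, in 34.9% of members and 21.9% of all genes. Hsp90aa1 had a difference of 0.94, Hspa14 0.88 and Dnajc17 0.85. Dnajc17, Dnajc5g and Dnajc6 averaged 4.91, 3.64 and 4.12, below the median level of all genes (5.15). Signals within an array also spread more in numbers 1 and 2, with an SD of 1.90 to 1.94 against 1.71 to 1.81. The 3′ minus 5′ signal of the pyruvate carboxylase control was -0.35 to -0.08 on arrays numbered 1 or 2, below the -0.007 to 0.23 of those numbered 3 or 4. The same measure overlapped between these arrays for the other 3 controls, with means of -0.20 and -0.19 for actin, 0.067 and 0.055 for Gapdh and -1.04 and -1.05 for the transferrin receptor. Their part in these differences was not tested.

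**Figure D3:**
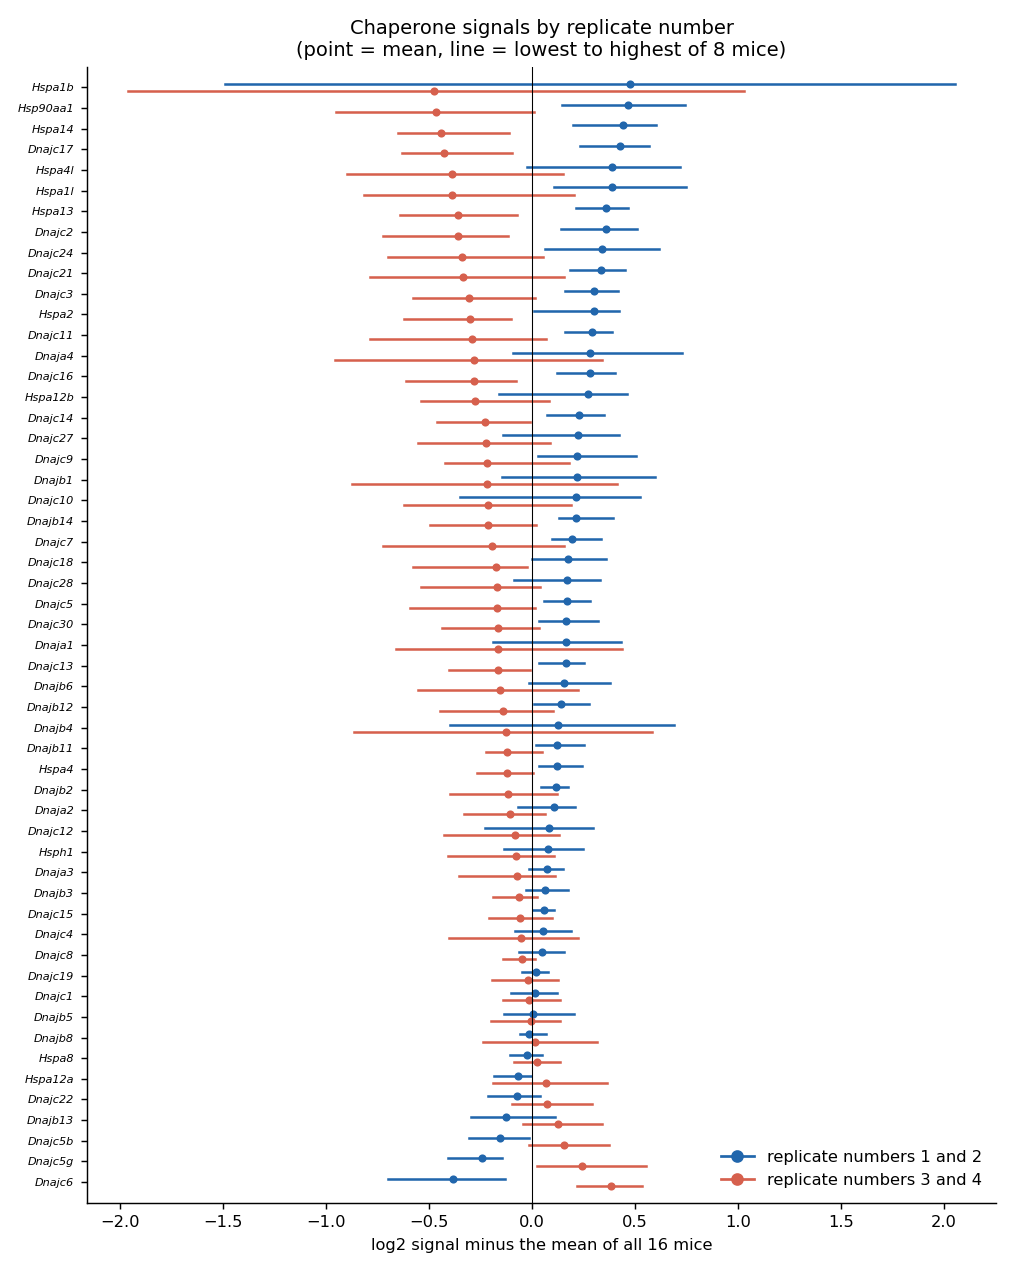
Signals of the 54 chaperone genes relative to the mean of all 16 mice, by replicate number; points are means and lines run from the lowest to the highest of 8 mice. Numbers 1 and 2 lie to the right of numbers 3 and 4 in 46 genes, with Dnajc5g and Dnajc6 the clearest in the other direction. Both have mean levels below the median of all genes.

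The members whose signals were most like that of Hspa1b over the 16 mice were Hsp90aa1 and Dnaja1. By Pearson r only these 2 of 53 passed (adjusted permutation p under 0.05). Dnajb1, Hsph1 and Hspa8 were among those that did not, with r of 0.313, 0.322 and 0.221. Of 152 genes compared (53 members and 99 genes of the pathway lists below), Dnaja1 had Pearson r = 0.740 (permutation p = 0.00098, adjusted p = 0.0350; Spearman rho = 0.785, permutation p = 0.00042, adjusted p = 0.0319). Without the 2 mice farthest from the median of Hspa1b, r was 0.703. Within numbers 1 and 2 it was 0.678 (exact p = 0.0653, adjusted p = 0.50) and within numbers 3 and 4 it was 0.700 (exact p = 0.0506, adjusted p = 0.505), 8 mice each. Hsp90aa1, whose values for numbers 1 and 2 and numbers 3 and 4 do not overlap, gave r = 0.806 within the former (exact p = 0.0169, adjusted p = 0.286) and 0.851 within the latter (exact p = 0.00347, adjusted p = 0.264). For Dnajb4 r was 0.692 and for Dnaja4 0.684 (adjusted permutation p = 0.0627 for each), which did not pass, while by rank rho was 0.747 and 0.744 (adjusted permutation p = 0.0343 for each), which did. Of the pathway genes Hspb1, the small heat shock protein Hsp27, gave r = 0.792, and the endoplasmic reticulum stress genes Sdf2l1, Manf and Creld2 gave 0.789, 0.782 and 0.734 (adjusted permutation p of 0.0198, 0.0198, 0.0228 and 0.0362). By rank Hspb1 did not pass (rho = 0.662, adjusted permutation p = 0.0785). The immediate early gene Ier2 had r = 0.702 (adjusted permutation p = 0.0450). Within numbers 1 and 2 the 3 endoplasmic reticulum genes had r of 0.875, 0.921 and 0.898, and within numbers 3 and 4 of 0.694, 0.700 and 0.559; no adjusted exact p in either set of numbers was under 0.05. For the other genes of the endoplasmic reticulum list r ran from 0.013 (Pdia3) to 0.666 (Pdia4) over 16 mice, and none passed. By rank Pdia6 passed (rho = 0.712, adjusted permutation p = 0.0490). Permutations over 16 mice ignored group and number, and those within a set of numbers ignored group. These correlations and their p-values therefore hold such differences as well as differences between mice. With group and number removed, r was 0.793 for Hsp90aa1, 0.736 for Dnaja1, 0.477 for Dnajb4, 0.362 for Dnaja4, 0.727 for Hspb1, 0.709 for Sdf2l1, 0.819 for Manf, 0.765 for Creld2 and 0.444 for Ier2. These values with group and number removed were not tested.

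**Figure D4:**
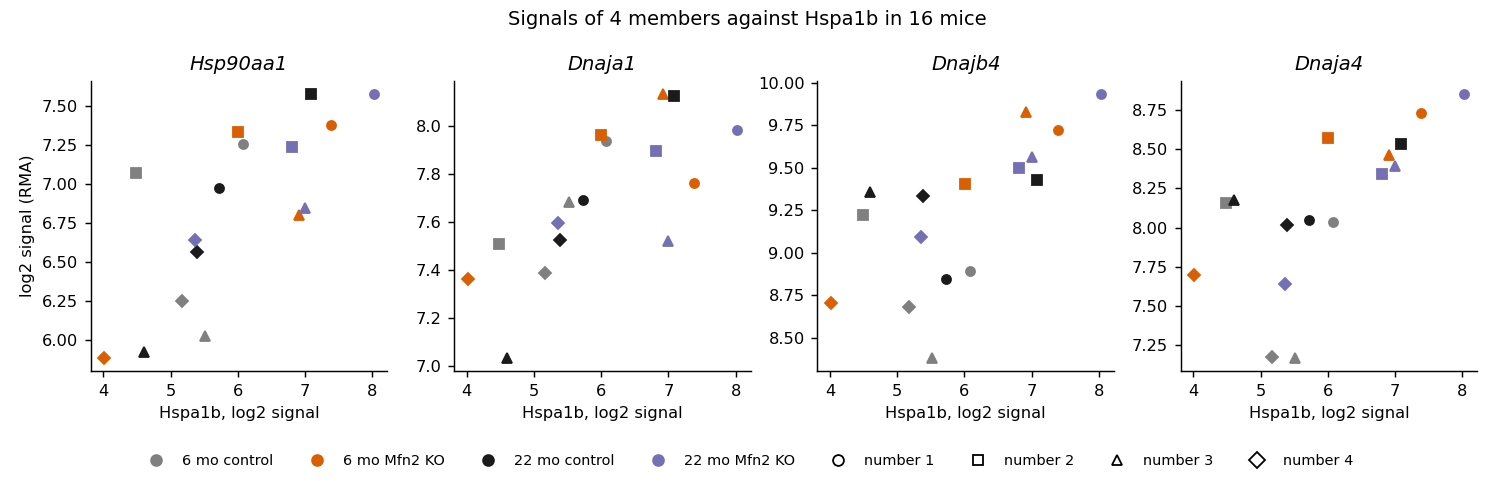
Log2 signals of Hsp90aa1, Dnaja1, Dnajb4 and Dnaja4 against Hspa1b in each of 16 mice; colour marks the group and shape the replicate number. In Hsp90aa1, circles and squares (numbers 1 and 2) lie above triangles and diamonds, and within each the signal is higher where Hspa1b is higher.

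Genes that act with these chaperones were described as 9 lists. Hsf1, which encodes heat shock factor 1, was listed among the stress factors but was not measured. For the 7 measured stress factors and regulators, the 22 co-chaperones, the 14 genes of TRiC and prefoldin, the 8 mitochondrial chaperones, the 2 cold-inducible RNA-binding genes and the 14 clock genes, none was called in any comparison in either fit. Cryab, a small heat shock protein of the muscle Z-disc, was the exception among the 6 small heat shock genes. It was 10.88, 10.90, 10.85 and 10.73 in young control, 11.27, 11.04, 11.08 and 10.97 in young KO, 11.25, 11.28, 11.18 and 11.04 in old control and 11.48, 11.23, 11.14 and 11.08 in old KO mice. Every old control mouse exceeded every young control mouse, and so did every young KO mouse. Groups without overlap were found in 1.52% of all genes for age in control mice and 1.36% for genotype at 6 months. Means were 10.84 in young control and 11.09 in young KO mice, and Cryab was not called for genotype at 6 months in either fit. With the replicate block Cryab was called for age in control mice (0.35, adjusted p = 0.0401) and for age over both genotypes (0.24, adjusted p = 0.00693), but without it the adjusted p was 0.886 and 0.272. With the block and each array left out in turn, the first call held in 5 of 16 fits (adjusted p 0.0161 to 0.135), those without young KO number 1 or 4 or old KO number 1, 3 or 4, and was lost without any other array; the second held in 16 of 16. With family in the blocked fit the differences were 0.24 and 0.21, and neither call held (adjusted p = 0.625 and 0.502). All 13 endoplasmic reticulum genes were higher in KO than control at 22 months (median 0.12), where 48.4% of all genes were, and none was called; at 6 months 11 of 13 were higher (median 0.14). With age 12 of these 13 were higher in control mice (median 0.088) and 13 in KO mice (median 0.14), beside 46.9% and 47.1% of all genes. The 13 immediate early genes were likewise all higher in KO than control at 22 months (median 0.50), and none was called. At 6 months 7 were higher and 6 lower (median 0.030). With age 7 were higher and 6 lower in control mice (median 0.061), and 13 were higher in KO mice (median 0.47). For Fos the KO minus control difference at 22 months was 2.63 (adjusted p = 1).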

How the data were processed

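The authors deposited a log2 signal for each probe set, made with RMA and the affy package, per the submitters' processing notes; versions are not given in the sources used here. The labels' protocols give 25 ng of input RNA for amplification and labelling. All 16 columns were used, and 104 control probe sets were left out. Of the remaining probe sets, 28898 carried 1 gene symbol, 551 several and 15588 none. Each gene was read from its brightest probe set (mean of 16 arrays), and no gene was filtered on level. The gene IDs of all 54 members were in the RefSeq table, and 34 members had more than 1 probe set.

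The tests used limma 3.58.1 under R 4.3.3 (lmFit, eBayes with trend, two-sided, Benjamini-Hochberg over 17097 genes, threshold 0.05; intervals 95%). All 16 arrays were fitted with 1 mean per group. The procedure was also run on simulated data with known changes. How many of them it recovered is not given here, so that run does not show what size of change could be missed. Deviations from the group means correlated between same-numbered arrays from 0.289 to 0.780 (24 pairs, median 0.677), against a median of -0.455 between numbers, so the number was also fitted as a block. For 9 of the 16 arrays the nearest array of another group shared the number; for the others it did not. The pairing comes from the numbers in the titles, whose meaning the labels do not give. The share of all genes that differ in one direction in 4 of 4 numbers was not counted. The labels also give a family, which was unbalanced between ages. Fitting family as a covariate, without the block, moved genotype differences too. At 6 months Hspa1b went from 0.77 to 0.55, Dnaja4 from 0.73 to 0.68 and Dnajb4 from 0.62 to 0.56. At 22 months Hspa1b went from 1.10 to 0.92 and Dnajb6 from -0.24 to -0.29. Correlations used 100000 permutations or, for 8 mice, all orders. The number of arrays limits the precision, and p-values measure the spread between these mice.

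Named genes were the Hsp70, Hsp90 and Hsp110 members, Dnaja1 to Dnaja4 and Dnajb1, 2, 4, 5 and 6, and in each comparison the 8 members with the smallest blocked p, the largest differences by family and those whose groups did not overlap. From each pathway list the called genes or the 3 with the smallest blocked p were admitted; those described are a selection made after their values were seen. Members and lists were chosen with earlier results of these data known. Alternatives were the block, the mean of probe sets, only genes at or above the median level, quantile normalization, eBayes without trend, family as a covariate, subsets by number, and leaving out each array.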

Additional observations from a re-analysis of the deposited data

Results flagged for a closer look

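Dnajb6, read from its brightest probe set, differed with genotype in opposite directions at the 2 ages, in 4 of 4 replicate numbers each. Its interaction was -0.40 (adjusted p = 1, and 0.641 with the block), so the difference between ages did not pass the test. How often all genes show such a pattern was not counted. Its other probe sets did not all change sign. At 6 and 22 months the second dimmest gave 0.20 and 0.16 and the dimmest -0.006 and -0.10. Among 92 groups of 4 mice checked over 23 members, 4 held a mouse far from the other 3: Dnajb2 in old KO number 3 (9.05), Dnajb4 in old control number 1 (8.84), Hsph1 in young KO number 4 (9.17) and Hsph1 in old control number 3 (8.88). Each was the lowest of its group. Chance flags about 1 in 20 groups.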

How the results depend on the processing

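No member was called in any of the 7 comparisons under the 9 alternatives other than leaving out an array. When each of the 16 arrays was left out, the count of called members ranged from 0 to 0 without the block in every comparison and with it in 6 of them. For age over both genotypes with the block it ranged from 0 to 1. The 1 was Hspa4l, at -0.38 without young KO number 1 and -0.39 without old control number 2. The replicate block changed no other call of a member, and its call of Cryab is given with that gene. The median differences over the members moved by less than the spread between mice (SD 0.19) under every alternative, but they are near 0 and their signs change with the setting. Of 312 values of 35 named differences under the alternatives that keep all arrays or a subset by number, 3 changed sign. They were Hspa1b for age in control mice with only numbers 3 and 4 (-0.35), Hspa1b for the interaction with only numbers 1 and 2 (-0.40), and Dnajc24 for age over both genotypes with family and block together (0.034). Leaving out an array gave Hspa1b for age in control mice a range from -0.073 to 0.76 without the block and from -0.17 up with it (below 0 also at -0.033). For the interaction of Hspa1b the range was -0.36 to 0.81 without the block, and with it the values below 0 were -0.17, -0.15, -0.045 and -0.027. For Dnajc6 with genotype at 22 months it was -0.043 to 0.35. The causes were not tested.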
